A study of Mus musculus with 2 samples.

Results

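Vγ6-led barcodes are droplets of a single-cell RNA library in which the γ T cell receptor (TCR) variable segment with the most UMIs (unique molecular identifiers, the counted RNA molecules) was Tcrg-V6. All deposited barcodes with at least 1 UMI of Tcrg-V1, Tcrg-V3, Tcrg-V4, Tcrg-V5, Tcrg-V6, Tcrg-V7 or Trgv2 were considered, and barcodes in which the leading segment was tied were left out. Members were thus chosen by their own γ V UMIs, which are given below as a description. By this rule 105 barcodes were Vγ6-led, of 721 barcodes led by any of these segments and 1398 barcodes in all. The study took fetal thymic lobes from wild-type C57BL/6 embryos at embryonic day 15, kept them untreated in culture for 2 days, and sorted CD24+ γδ T cells by TMRE, a dye taken up according to mitochondrial membrane potential. The TMREhi and the TMRElo fraction each gave 1 library, made with a 10x 5′ kit, which reads transcripts from the end where the V segment lies. With 1 library per fraction no replicate supports any difference. No p-value is given, and every interval is an exact 95% interval (binomial for shares, Poisson for sums and ratios) that covers counting error only.

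γδ T cells leave the fetal thymus in waves that use fixed pairs of γ and δ V segments. The Vγ6 chain is known for pairing with a Vδ1 chain, whose gene is Trdv4 here, and for cells that make IL-17 and settle in skin dermis, tongue, lung and the reproductive tract. The earlier Vγ5 wave uses the same δ chain and seeds the epidermis, and cells of this wave are known for interferon-γ and killing rather than IL-17. The transcription factors Maf, Sox13 and Sox4 are known to act in the IL-17 programme, in which immature cells, marked by CD24, become responsive to IL-1 and IL-23.

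The sequences of the V segments decide how far UMIs can be told apart. The first 150 coding bases of the spliced segment in the GENCODE vM21 transcripts (GRCm38) are shown for Tcrg-V6, for its δ partner, and for the segments that matter most in the comparisons. Capitals mark bases that lie in a run of at least 25 bases shared with another of the γ segments.
Tcrg-V6: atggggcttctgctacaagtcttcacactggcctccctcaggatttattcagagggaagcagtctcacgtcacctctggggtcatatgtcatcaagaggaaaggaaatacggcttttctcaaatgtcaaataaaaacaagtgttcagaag
Tcrg-V5: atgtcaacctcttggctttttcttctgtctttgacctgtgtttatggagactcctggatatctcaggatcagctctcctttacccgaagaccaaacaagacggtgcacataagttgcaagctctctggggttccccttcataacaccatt
Trgv2: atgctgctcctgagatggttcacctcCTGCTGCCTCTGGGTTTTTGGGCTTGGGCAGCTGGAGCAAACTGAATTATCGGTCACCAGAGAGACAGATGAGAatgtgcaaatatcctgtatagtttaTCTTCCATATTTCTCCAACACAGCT
Tcrg-V1: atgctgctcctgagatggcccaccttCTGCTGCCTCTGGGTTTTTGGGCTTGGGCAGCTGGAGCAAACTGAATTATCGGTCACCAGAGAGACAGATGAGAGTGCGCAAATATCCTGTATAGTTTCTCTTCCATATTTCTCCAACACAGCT
Trdv4: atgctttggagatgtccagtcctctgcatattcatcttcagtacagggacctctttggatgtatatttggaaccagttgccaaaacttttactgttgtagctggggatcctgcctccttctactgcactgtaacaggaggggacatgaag

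Tcrg-V6 lies on chromosome 13 at 19190356 to 19190929 (plus strand, 2 exons) and Trdv4 on chromosome 14 at 54074905 to 54075515 (plus strand, 2 exons). No base of the coding part of Tcrg-V6 fell in a run of 25 bases shared with another γ segment. Its identity with the other segments was 49.5% (Trgv2) to 52.0% (Tcrg-V3), and the longest shared run was 14 bases, with Tcrg-V4. Trgv2, Tcrg-V1 and Tcrg-V3 are close copies, with 77.7% to 83.3% of their coding bases in shared runs, so a barcode given to 1 of those 3 is uncertain among them. A barcode given to Tcrg-V6 does not carry that uncertainty.

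All 105 Vγ6-led barcodes were in the TMREhi library, where they made up 17.0% (14.1 to 20.2%) of 619 γ V-led barcodes. In the TMRElo library 0 of 102 γ V-led barcodes were Vγ6-led, which allows a share of up to 2.94% by the limit of 3 counts and up to 3.55% by the binomial interval. The TMRElo library did hold 14 UMIs of Tcrg-V6, in 5 barcodes. In 3 of them it was tied at 1 UMI, and in the other two, with 11 UMIs between them, it stood behind another segment. The TMRElo library was smaller and shallower (196 barcodes, median 936.5 UMIs) than TMREhi (1202 barcodes, median 1722.5 UMIs), the libraries shared 0 barcodes, and the part of depth or of the sort in the absence of Vγ6-led barcodes was not tested. In TMREhi the other leading segments were Trgv2 (324 barcodes), Tcrg-V4 (89), Tcrg-V1 (46), Tcrg-V5 (40), Tcrg-V7 (9) and Tcrg-V3 (6).

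The Vγ6-led barcodes fell into a pair of classes by the share of UMIs from ribosomal protein genes, 63 below 15% and 42 at 15% or more, as did the other γ V-led barcodes (311 and 203). Few lay near that boundary: 6 Vγ6-led barcodes had a share from 10 to 15% and 3 from 15 to 20%. Low-ribosomal Vγ6-led barcodes held a median of 1276 UMIs, with 17.8% of them from mitochondrial genes, and the high-ribosomal ones 4833 UMIs with 3.44%. Of the 105, 41 had at least 500 genes and at most 10% mitochondrial UMIs, and only 1 of those 41 was low-ribosomal. In both classes Vγ6-led barcodes were shallower than the others, whose medians were 1760 and 10137 UMIs. Gene levels were therefore compared separately in low- and high-ribosomal barcodes, except for the barcodes just outside the rule and in the comparisons by γ and δ lead at the end. The comparisons at the end pool the classes and are followed by the values within each class.

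**Figure D1:**
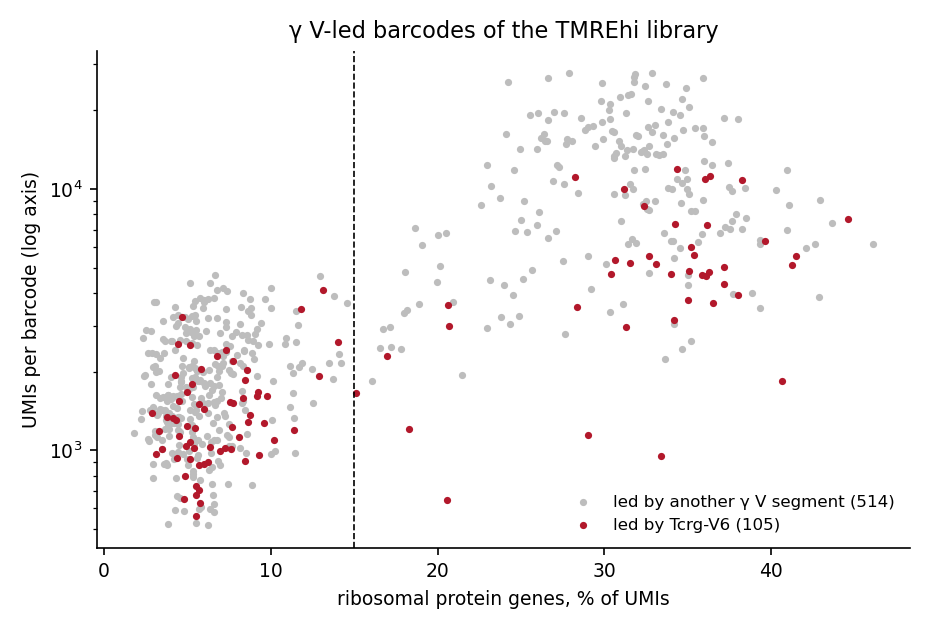
Each point is 1 γ V-led barcode of the TMREhi library, with its share of UMIs from ribosomal protein genes (x, percent) and its UMIs (y, log axis); red, led by Tcrg-V6; grey, led by another γ V segment; dashed line, 15%. The 63 low-ribosomal Vγ6-led barcodes sit among the others at 560 to 4106 UMIs, and most of the 42 high-ribosomal ones lie below the median of 10137 UMIs of the other barcodes in that class.

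The lead itself rested on few molecules. A Vγ6-led barcode held 1 to 13 UMIs of Tcrg-V6 (median 3), 24 of the 105 were led by 1 UMI, and 42 were ahead of the next segment by 1 UMI. The 105 barcodes held 424 of the 533 Tcrg-V6 UMIs of the library (79.5%). Just outside the rule, 22 barcodes had Tcrg-V6 tied for the lead and 29 had it behind another segment. The tied barcodes resembled the members in Trdv4 and Cd163l1, which the rule did not use. Trdv4 led in 19 of them. Their Cd163l1 level was 3251 counts scaled to 1000000 UMIs (CPM). Members ahead by 1 UMI had 2578 CPM, and members ahead by 2 or more 1984 CPM. These levels pool the classes. Of the tied barcodes 19 were low- and 3 high-ribosomal, and of the members ahead by 2 or more 28 and 35. Cd163l1 stood at 3810 CPM in low- and 1432 CPM in high-ribosomal members, so the order cannot be told apart from the class mix.

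The δ chain, which the rule did not use, was nearly uniform. Of 97 Vγ6-led barcodes with a leading δ V segment, 91 were led by Trdv4 (93.8%, 87.0 to 97.7%), 3 by Trdv2-2 and 1 each by Trdv5, Trav13-4-dv7 and Trav15-1-dv6-1. The share was 51 of 56 in the low-ribosomal and 40 of 41 in the high-ribosomal class, and it was 19 of 21 where Tcrg-V6 led with 1 UMI and 72 of 76 where it led with 2 or more. Tcrg-V5-led barcodes, the other users of this δ chain, had a share of 90.0% (27 of 30), and its interval contained the Vγ6 value. The remaining leads lay far below, at 13.3% for Tcrg-V1 (4 of 30), 11.5% for Trgv2 (25 of 217) and 6.67% for Tcrg-V4 (4 of 60), and their intervals did not reach that of the Vγ6-led barcodes. In level, Trdv4 reached 2947 CPM in low-ribosomal Vγ6-led barcodes against 271 CPM in the other γ V-led barcodes of that class, and 2099 against 104 CPM in the high-ribosomal class.

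**Figure D2:**
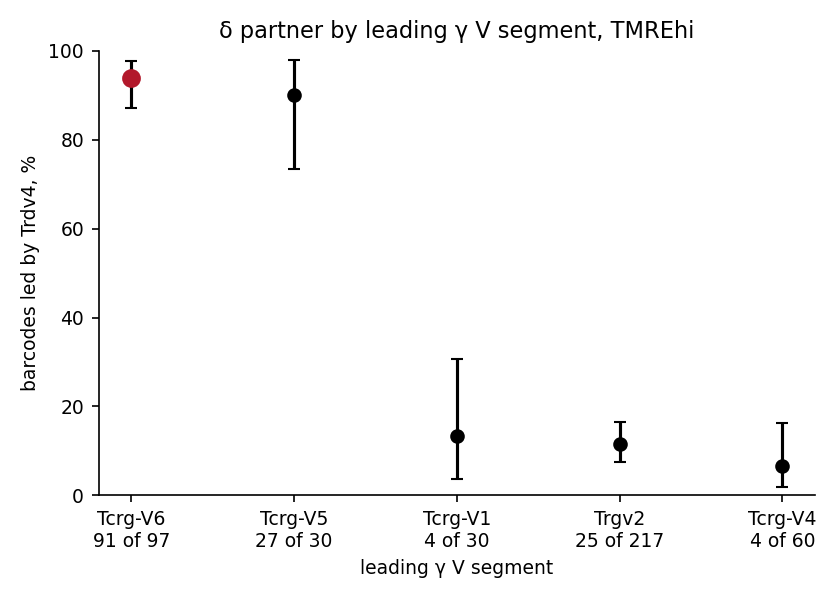
Share of barcodes (y, percent) whose leading δ V segment was Trdv4, by leading γ V segment (x) in the TMREhi library, among barcodes with a leading δ segment; bars are exact 95% binomial intervals, and the counts stand under each name. Tcrg-V6 (red, 93.8%) and Tcrg-V5 (90.0%) stand together near the top, and Tcrg-V1, Trgv2 and Tcrg-V4 lie at 13.3% or less.

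The γ constant region was mostly Tcrg-C1. Tcrg-C1, the constant gene downstream of Tcrg-V4, Tcrg-V5, Tcrg-V6 and Tcrg-V7, took 297 of 374 γ constant UMIs in Vγ6-led barcodes (79.4%, 75.0 to 83.4%), Tcrg-C4 12.8%, Tcrg-C2 7.75% and Tcrg-C3 none. In Tcrg-V5-led barcodes the Tcrg-C1 share was 66.1%, in Tcrg-V4-led 46.5%, in Trgv2-led 46.2% and in Tcrg-V1-led 38.9%. How reads were assigned among the constant genes was not tested. A further γ segment was often present: 50 of the 105 Vγ6-led barcodes held UMIs of another one, most often Trgv2 (33 barcodes, 31.4%), Tcrg-V5 (20 barcodes, 19.0%) or Tcrg-V1 (19 barcodes, 18.1%), while Tcrg-V4 appeared in 2 and Tcrg-V3 and Tcrg-V7 in 0. Scrublet called none of the 105 a doublet. Whether these transcripts belong to the same cell was not tested.

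For the comparison across genes, UMIs were summed over Vγ6-led barcodes and over all other γ V-led barcodes of the same ribosomal class in the TMREhi library, scaled to CPM, and a log2 ratio was taken after adding 1 CPM. Among 8700 low-ribosomal genes averaging 10 CPM or more over the groups, 12.1% were higher by at least 2-fold in Vγ6-led barcodes and 16.3% lower. Among 7319 high-ribosomal genes, 12.4% were higher and 14.6% lower. At 91613 and 222004 summed UMIs for the Vγ6-led groups, a gene near 10 CPM rests on 1 or a few molecules. In counts simulated at these depths, 22.7% of unchanged low-ribosomal and 11.1% of unchanged high-ribosomal genes passed 2-fold in either direction. Much of the low-ribosomal share above can therefore arise from counting error alone. The classes gave the same direction for 63.4% of 5697 genes with at least 20 UMIs in each class, with 161 genes higher and 344 lower by 2-fold or more in both. The classes share no barcode but come from 1 library.

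**Figure D3:**
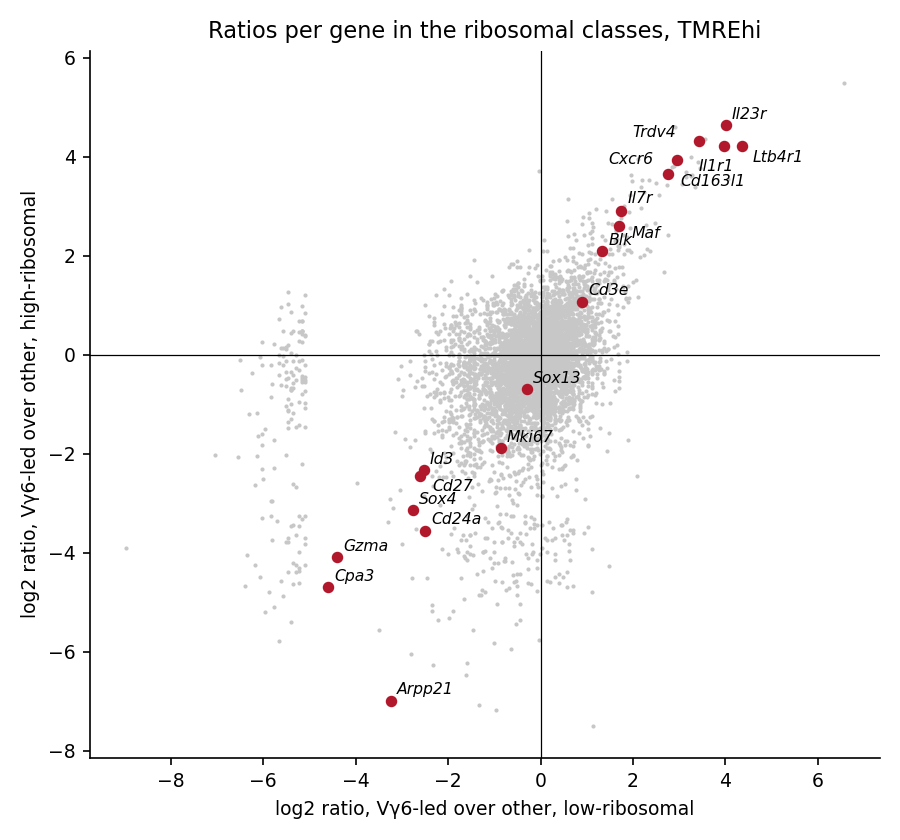
Each point is 1 gene with at least 20 UMIs over both groups in each class: log2 ratio of CPM, Vγ6-led over other γ V-led, in low-ribosomal (x) and high-ribosomal barcodes (y) of the TMREhi library; red points are named genes. Il23r, Trdv4, Il1r1 and Ltb4r1 lie at the upper right in both classes, Gzma, Cpa3 and Arpp21 at the lower left, Sox13 close to 0, and the streaks at the far left and the bottom are genes with 0 UMIs in the Vγ6-led group, whose log2 ratio depends on the added CPM.

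The transcription factors and markers of the IL-17 wave separated into genes that were higher and genes that were not. Maf, a transcription factor required for IL-17 γδ T cells, stood at 829.6 against 256 CPM in the low-ribosomal class (3.24-fold, 2.43 to 4.29) and at 572 against 93.1 CPM in the high-ribosomal class (6.15-fold, 4.90 to 7.68). Blk, a Src-family kinase of IL-17 γδ T cells, was 2.53-fold (1.58 to 3.96) and 4.30-fold (3.23 to 5.68) higher. For both genes the interval of the ratio lay above 1 in both classes.

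Sox13 and Sox4 went the other way. Sox13, an HMG-box factor used as a marker of this wave, was measured at 142 against 175 CPM in the low-ribosomal and 31.5 against 51.7 CPM in the high-ribosomal class, and both intervals of the ratio (1.24-fold lower, 0.692 to 2.40; 1.64-fold lower, 0.771 to 4.16) include 1. Sox4, its relative, was 6.88-fold lower (2.90 to 21.4) and 9.29-fold lower (3.60 to 34.3). Sox5 had 0 UMIs in all Vγ6-led barcodes, at least 2.52-fold and at least 1.80-fold lower than the 82.7 and 24.3 CPM of the others. Of the 6 markers given for this cell type, 5 were higher in both classes, with Tcrg-V6 among them by construction, and Sox13 was not.

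Of the 15 listed IL-17 transcription factors, 14 were measured in the low-ribosomal class (8 higher and 6 lower, median log2 ratio 0.69) and 12 in the high-ribosomal class (7 higher and 5 lower, median 1.02), where the median over all genes was -0.08 and -0.04. The direction of this median was not stable. Without barcodes that held a Mki67 or Top2a UMI it was -0.22 and -0.60, and with Tcrg-V6 at least 2 UMIs ahead it was -0.10 in the low-ribosomal class. Among the listed factors Rora, Relb and Lmo4 were 1.66- to 3.48-fold higher in both classes, with an interval that includes 1 only for Relb in the low-ribosomal class. Without barcodes that held a Mki67 or Top2a UMI, most of these intervals included 1. In the low- and high-ribosomal class the ratio was then 1.14 (0.622 to 1.97) and 1.59 (0.812 to 3.05) for Rora. It was 5.18 (1.11 to 26.1) and 1.65 (0.521 to 4.97) for Relb, and 2.07 (0.638 to 5.96) and 2.90 (1.54 to 5.54) for Lmo4. Zbtb16, which encodes PLZF, stood at 98.2 against 61.2 CPM and 31.5 against 22.2 CPM in all barcodes, with intervals that include 1. Hes1, a Notch target, had 0 UMIs in Vγ6-led barcodes of either class, where 3 counts equal 32.7 and 13.5 CPM. Among barcodes without a Mki67 or Top2a UMI the others held only 6 and 5 UMIs of Hes1, so little can be read from the 0.

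Genes of IL-17 effector function and cytokine response were higher almost as a group. Of 31 measured in the low-ribosomal class 28 were higher, 26 of them by at least 2-fold, with a median log2 ratio of 2.50. Of 30 in the high-ribosomal class 29 were higher, 28 by at least 2-fold, with a median of 3.53. Those shares stand beside 12.1% and 12.4% of all genes higher by 2-fold. The lists, this one included, were chosen with earlier results of these data known, so the shares only describe the listed genes. The scavenger receptor gene 5830411N06Rik (Scart2) was the listed gene on the lower side in both classes. In the low-ribosomal class Il17rb, a receptor subunit for IL-25, had 0 UMIs in Vγ6-led barcodes (at least 1.31-fold lower), and Actn2, an actin-binding protein gene, stood at 43.7 against 44.6 CPM.

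Receptors for inducing cytokines were among the higher genes. Il23r, the IL-23 receptor subunit, stood at 786 against 47.9 CPM in the low-ribosomal class (16.4-fold, 10.5 to 26.2) and at 131 against 4.27 CPM in the high-ribosomal class (30.6-fold, 14.5 to 70.4). Il1r1, the IL-1 receptor, was 16.3-fold (8.30 to 33.7) and 22.0-fold (10.6 to 48.0) higher, and Il18r1, an IL-18 receptor subunit, 10.3-fold and 11.3-fold. Il7r, the receptor for the survival cytokine IL-7, was 3.36-fold and 7.53-fold higher. The scavenger receptor Cd163l1 was the most abundant gene of the group, at 3810 against 565 CPM and 1432 against 113 CPM. The chemokine receptors Cxcr6 (7.79- and 15.4-fold), Ccr2 (5.91- and 9.44-fold) and Ccr6 (9.24- and 21.1-fold) were higher as well. Cd163l1, Il7r, Cxcr6, Ccr2 and Ccr6 were chosen after their values were seen, as were Rora, Relb, Zbtb16, Actn2, Il17a, Il17f, Il22, Gzmb, Xcl1, Cd3e, Trdc, Mki67 and 5830411N06Rik elsewhere in the text.

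Cytokine transcripts were scarce. Il17a had 6 UMIs in the 63 low-ribosomal and 18 in the 42 high-ribosomal Vγ6-led barcodes, against 7 and 4 UMIs in the 311 and 203 others, a ratio of 5.66 (1.57 to 19.7) and 47.5 (15.6 to 193). The 18 UMIs came from 4 barcodes, and the 6 from 5. Without barcodes that held a Mki67 or Top2a UMI, Il17a had 5 UMIs against 4 (a ratio of 5.18, 1.11 to 26.1) and 9 against 2 (a ratio of 9.52, 1.97 to 90.6). In the high-ribosomal class Il22 had 8 UMIs against 2 (a ratio of 42.2, 8.42 to 408), and in the low-ribosomal class Il17f had 2 against 5 (a ratio of 2.64, 0.251 to 16.1). Lta, a lymphotoxin gene, was 14.5-fold (4.65 to 53.3) and 9.09-fold (5.11 to 16.1) higher. Ifng had no UMI in Vγ6-led barcodes or in those led by any other segment described here.

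Genes outside any single pathway completed the top of the ranking by the weaker of the classes. Ltb4r1, the leukotriene B4 receptor, was 21.6-fold (10.8 to 47.1) and 21.1-fold (11.5 to 40.3) higher. Gpr183, an oxysterol receptor that guides lymphocyte migration, was 17.3-fold and 13.6-fold higher, and Stab2, a scavenger receptor better known from endothelium, 12.2-fold (5.96 to 26.1) and 27.1-fold (10.8 to 76.8). Serpinb1a, a protease inhibitor, Capg, an actin-capping protein, Tmem176a, a membrane protein, Selenop, a selenium carrier, and Il17re, a receptor subunit for IL-17C, were each higher by 9.02-fold or more in both classes. H2-Q7 was 11.1-fold and 14.5-fold higher, but its near-identical neighbours in the Qa-2 family make the gene name uncertain.

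For Maf, Il23r, Cd163l1 and Blk the difference was also present at equal depth, as shares of barcodes with a UMI. After each barcode was thinned to 944 UMIs, Maf was seen in 44.0% of 50 low-ribosomal Vγ6-led barcodes and in 17.0% of 277 others, against 54.0% and 27.0% before thinning. Il23r was seen in 48.0% and 3.97%, Cd163l1 in 72.0% and 16.2%, and Blk in 34.0% and 7.58%. At 3026 UMIs in the high-ribosomal class Maf was seen in 75.8% of 33 and 19.9% of 191, Il23r in 27.3% and 1.57%, and Cd163l1 in 90.9% and 18.3%. Thinning left out 13 and 9 Vγ6-led barcodes and 34 and 12 others. In 88 Rag1-positive barcodes without a γ V UMI, thinned to 944 UMIs (median 778 UMIs before, with 145 shallower ones left out), Maf and Cd163l1 were each seen in 2.27% and Il23r and Blk in 0 of 88, so the shares in Vγ6-led barcodes stood above this background. Sox13 was seen in 10.0% of Vγ6-led and 12.3% of other low-ribosomal barcodes. For Il17a no difference was detectable at equal depth: it was seen in 0 of 50 Vγ6-led and 1 of 277 other low-ribosomal barcodes and in 1 of 33 and 2 of 191 high-ribosomal ones.

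Listed genes of immature thymocytes were mostly lower. Of the listed immature thymocyte genes 18 of 21 were lower in the low-ribosomal class (median log2 ratio -1.24, or -0.96 with genes at 0 UMIs put at 3 counts) and 16 of 20 in the high-ribosomal class (median -1.41, or -1.16). Lower by at least 2-fold were 11 of the 21 and 12 of the 20, beside 16.3% and 14.6% of all genes, and higher by 2-fold were 2 and 2. Of all genes measured, 46.8% and 48.1% were higher at any size. Cd24a, which encodes the antigen of the sort, had 1 UMI in the low-ribosomal Vγ6-led barcodes (10.9 against 66.1 CPM, a ratio of 6.06 the other way, 1.03 to 245) and 3 UMIs, all in 1 barcode, in the high-ribosomal ones (13.5 against 169.5 CPM, 12.5, 4.26 to 61.1). Arpp21, a thymocyte phosphoprotein gene, was 9.57-fold lower (4.06 to 29.7) and had 0 UMIs in the high-ribosomal Vγ6-led barcodes, at least 9.32-fold lower. Themis, a TCR signalling gene of developing thymocytes, was 3.48-fold lower (1.91 to 7.07) and had 1 UMI against 203 in the high-ribosomal class. Rag1, the recombinase gene, was detected in 3 of 63 low-ribosomal Vγ6-led barcodes and 32 of 311 others, and in 2 of 42 and 14 of 203 high-ribosomal ones. These counts are not at equal depth. Its log2 ratio was -1.91 and -0.37, and the high-ribosomal direction held in only 11 of 15 alternatives.

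Cd27, a receptor that marks interferon-γ-biased γδ T cells, was 6.25-fold lower (2.39 to 23.2) and 5.59-fold lower (2.82 to 13.03). Id3, a target of strong TCR signals, was 5.91-fold lower (1.97 to 29.1) and 5.07-fold lower (3.27 to 8.34). Cpa3, a protease gene of mast cells and some progenitors, had 1 UMI in each class of Vγ6-led barcodes against 173 and 331 UMIs in the others. 5830411N06Rik, the listed effector gene on the lower side, was 7.08-fold lower (4.11 to 13.4) and 3.71-fold lower (1.93 to 8.18). Of the 12 genes at the bottom of the ranking, 11 had 0 UMIs in Vγ6-led barcodes of both classes, among them Sox5, Tedc1, Insig1 and Hmga2. Their lower bounds, at 3 counts, ran from 1.01-fold to 3.03-fold only.

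Cytotoxic and interferon-γ genes were mixed in the low-ribosomal class and mostly lower in the high-ribosomal class. Of the listed genes 9 in the low-ribosomal class were higher and 12 lower (median -0.18), and in the high-ribosomal class 5 were higher and 11 lower (median -0.99). Past 2-fold, 3 of 21 were higher and 5 lower in the low-ribosomal class, and 1 of 16 was higher and 8 lower in the high-ribosomal class, beside the 12.1% and 16.3%, and 12.4% and 14.6%, of all genes. Against Tcrg-V4-led barcodes only, the medians were 1.003 and 0.59, the opposite direction. The gene with the widest gap was Gzma, which encodes granzyme A and which stood at 87.3 against 1859.9 CPM (21.3-fold lower, 10.8 to 49.5) and 122 against 2096.5 CPM (17.2-fold lower, 11.8 to 26.2). It was detected in 11.1% and 9.52% of Vγ6-led barcodes against 44.7% and 65.0% of the others. Gzmb was level within its interval in both classes (1.55-fold lower, 0.562 to 5.97; 1.11-fold lower, 0.601 to 2.28).

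Class I antigen presentation stood out among maturation genes. H2-K1 was 3.18-fold (2.68 to 3.76) and 4.61-fold (3.95 to 5.36) higher, H2-D1 3.18-fold (2.64 to 3.82) and 4.36-fold (3.74 to 5.06), and B2m, their shared light chain, 2.73-fold (2.23 to 3.33) and 2.48-fold (2.21 to 2.79). The class I heavy chains are similar enough that reads may be shared among them. The list as a whole was mixed, with 12 higher and 12 lower in the low-ribosomal class (median -0.09) and 14 higher and 10 lower in the high-ribosomal class (median 0.48), with the egress regulator Klf2 on the lower side. Genes of the TCR signal response gave 6 higher and 13 lower (median -0.65) and 10 higher and 8 lower (median 0.45). Within that list Ctla4, an inhibitory receptor, was 3.30-fold (1.61 to 6.48) and 4.92-fold (2.41 to 9.57) higher, while Id3 was lower. The low-ribosomal Ctla4 difference was lost without Mki67- or Top2a-positive barcodes (log2 ratio -0.086). Of the receptor complex, Cd3e was higher by 1.86-fold and 2.10-fold and Trdc by 2.38-fold and 2.07-fold. Tcrg-C1, the constant gene downstream of Tcrg-V6, was higher by 1.81-fold and 1.98-fold. The other γ constant genes were lower. Their log2 ratios were -1.57 and -1.97 for Tcrg-C2, -2.93 and -2.97 for Tcrg-C3, and -0.55 and -0.61 for Tcrg-C4.

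Listed genes of cell division were lower in Vγ6-led barcodes than in the other γ V-led barcodes pooled. A Mki67 or Top2a UMI was present in 33.3% of low-ribosomal Vγ6-led barcodes against 49.8% of the others, and in 16.7% against 70.4% in the high-ribosomal class. Of 34 G2 and M phase genes, 29 were lower in the low-ribosomal class (median log2 ratio -0.83) and 33 in the high-ribosomal class (median -1.66). Of the S phase genes 30 of 33 and 34 of 34 were lower (medians -0.71 and -1.17). Mki67, a marker of dividing cells, stood at 589 against 1071 CPM and 126 against 471 CPM. After thinning it was seen in 22.0% against 32.5% and 9.09% against 42.4% of barcodes. A low share was not particular to Tcrg-V6: of the Tcrg-V5-led barcodes 8 of 32 low-ribosomal and 2 of 8 high-ribosomal ones held a Mki67 or Top2a UMI, and Mki67 was seen after thinning in 13.8% of 29 and 12.5% of 8.

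Since fewer Vγ6-led barcodes held a Mki67 or Top2a UMI, the marker genes were recomputed in barcodes without either, which left 42 Vγ6-led against 156 others in the low-ribosomal class and 35 against 60 in the high-ribosomal class. Maf stood at 965 against 337 CPM and 628 against 209 CPM and Il23r at 912 against 69.1 CPM and 129 against 26.2 CPM. Gzma stood at 53.6 against 2228 CPM and 12.3 against 1945 CPM. Cd24a, Sox4 and Cd27 had 0 UMIs in the 42 low-ribosomal Vγ6-led barcodes, where the 156 others held 9, 94 and 68. With 9 UMIs in the others, little can be read from the 0 of Cd24a. In the high-ribosomal class the members held 0, 4 and 5 UMIs of these genes and the others 27, 64 and 61. The median of the IL-17 effector genes in the high-ribosomal class was 1.97 in place of 3.53, still above 0. Maf, Il23r and Gzma kept their direction in both classes of barcodes without those division markers, but not their size. In the high-ribosomal class the log2 ratio was 1.58 in place of 2.61 for Maf and 2.26 in place of 4.64 for Il23r. For Il1r1 it was 2.52 in place of 4.21, and for Cd163l1 2.16 in place of 3.65. Gzma went further from 0, to -7.19 from -4.10. In the low-ribosomal class the change was smaller for Maf (1.52 in place of 1.69) and Il23r (3.70 in place of 4.01).

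Metabolic genes, the subject named in the title of the series, had list medians between -0.26 and 0.09. In the high-ribosomal class, where 48.1% of all genes were higher, more respiratory chain genes were lower than higher. Glycolysis genes (8 higher, 10 lower) and lipid genes (9 higher, 11 lower) lay near that share. Nuclear genes of the respiratory chain were higher in 45 and lower in 31 of 76 in the low-ribosomal class (median 0.04) and higher in 18 and lower in 58 in the high-ribosomal class (median -0.25). Genes encoded in mitochondrial DNA had medians of -0.04 and 0.05, genes of glycolysis 0.09 and -0.26, and genes of lipid uptake and oxidation 0.06 and -0.23. Past 2-fold, 0 of 18 glycolysis genes were higher and 1 lower in the low-ribosomal class, and 2 of 18 higher and 1 lower in the high-ribosomal class. Of the lipid genes 2 of 22 were higher and 4 lower by 2-fold in the low-ribosomal class, and 0 of 20 higher and 6 lower in the high-ribosomal class, where 14.6% of all genes were lower. Of the 76 respiratory chain genes 2 were higher and 5 lower, and 0 higher and 2 lower. Fabp5, a fatty acid carrier, was 9.61-fold lower (4.09 to 29.7) in the high-ribosomal class and at 43.7 against 81.0 CPM, within its interval, in the low-ribosomal class. Slc2a3, a glucose transporter, had 1 UMI in each class of Vγ6-led barcodes against 47 and 40. The share of barcodes with a Mki67 or Top2a UMI was lower among the Vγ6-led in both classes, and its part in these lists was not tested.

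**Figure D4:**
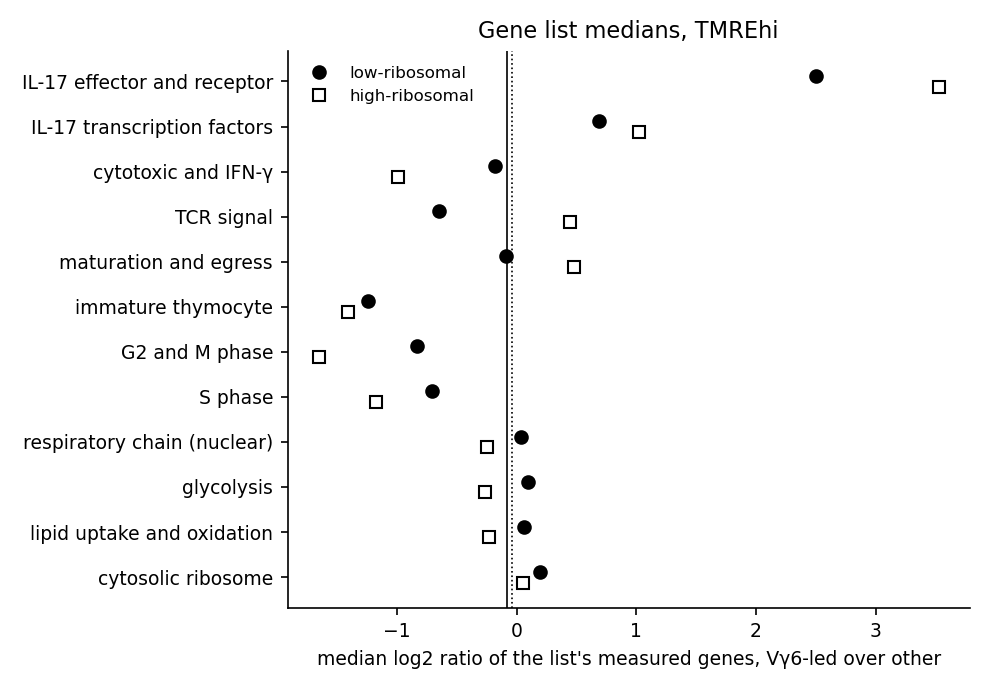
Median log2 ratio (x), Vγ6-led over other γ V-led barcodes, of the measured genes of each list (y) in low-ribosomal (filled circles) and high-ribosomal (open squares) barcodes of the TMREhi library; vertical lines mark the median over all measured genes (solid, low-ribosomal, -0.08; dotted, high-ribosomal, -0.04). IL-17 effector and receptor genes lie at 2.50 and 3.53, immature thymocyte and division genes below 0 in both classes, and the glycolysis, lipid and respiratory chain lists between -0.26 and 0.09.

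The levels by leading segment show where the comparison group mattered. Tcrg-V4-led barcodes, which also belong to an IL-17 wave, had the next highest Blk, at 194 CPM (low-ribosomal) and 169 CPM (high-ribosomal) against 306 and 329 CPM in Vγ6-led barcodes, and the intervals overlap in the low-ribosomal class. Among the 5 segments that led most barcodes they had the highest Sox13 (267 and 92.2 CPM) and Sox4 (568 and 261 CPM). In the high-ribosomal class only 12 barcodes were Tcrg-V4-led, and Gzma reached 6964 CPM in them. Il23r did not follow that order: its level was 46.8 CPM in Tcrg-V4-led, 47.1 in Trgv2-led, 59.4 in Tcrg-V1-led and 65.6 in Tcrg-V5-led low-ribosomal barcodes, which do not differ beyond their intervals, against 786 CPM in Vγ6-led barcodes. Tcrg-V4-led barcodes carried 5830411N06Rik at 1550 CPM against 142 CPM in Vγ6-led barcodes, and Cd163l1 at 481 against 3810 CPM, both in the low-ribosomal class.

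**Figure D5:**
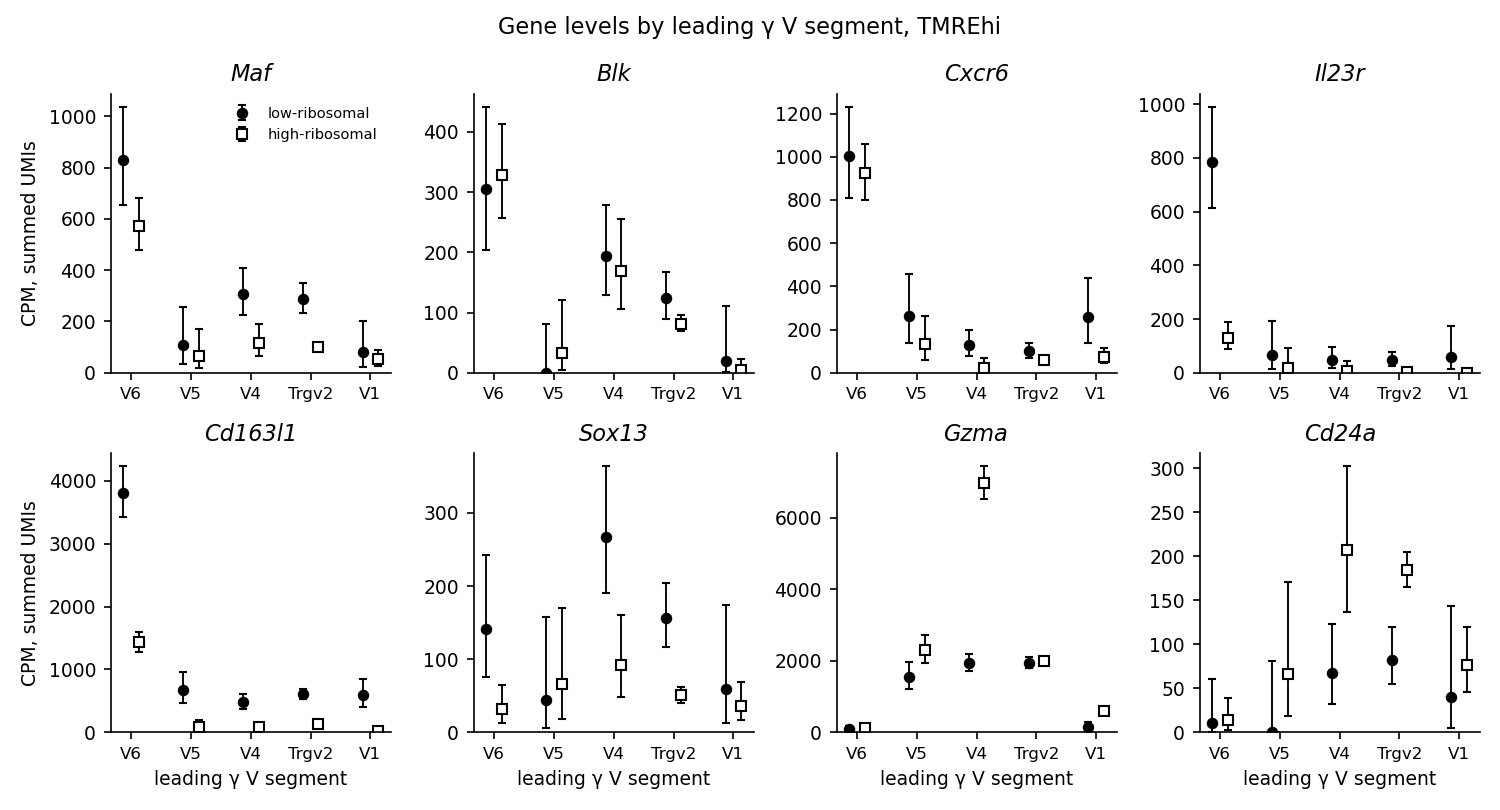
CPM of 8 genes (y, 1 panel each, from 0) by leading γ V segment (x) in low-ribosomal (filled circles) and high-ribosomal (open squares) barcodes of the TMREhi library; bars are exact 95% Poisson intervals. Vγ6-led barcodes are highest for Maf, Il23r, Cxcr6 and Cd163l1, Tcrg-V4-led barcodes for Sox13, and Gzma and Cd24a are near 0 in Vγ6-led barcodes.

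The Tcrg-V5-led barcodes shared the δ chain but differed in the level of several other genes. Among Trdv4-led barcodes of both classes, 91 were Vγ6-led and 27 Tcrg-V5-led, with Trdv4 at 2612 and 2405 CPM, a ratio of 1.09 (0.914 to 1.30). Maf was 6.79-fold (3.23 to 17.1) and Cd163l1 6.53-fold (4.31 to 10.4) higher with Tcrg-V6, and Blk had 100 UMIs against 0. The chemokines Ccl5 (37.8-fold, 27.6 to 52.8) and Xcl1 (22.2-fold, 14.3 to 36.0) and Gzma (66.5-fold, 31.2 to 169) were higher with Tcrg-V5. Within the low- and the high-ribosomal class Maf was 8.12-fold (3.04 to 30.6) and 7.06-fold (2.36 to 34.7) higher with Tcrg-V6, and Ccl5 28.5-fold (10.4 to 109) and 51.4-fold (37.0 to 73.3) higher with Tcrg-V5. The Gzma ratio came from few barcodes: among all Tcrg-V5-led barcodes Gzma was detected in 4 of 32 low-ribosomal ones (12.5%, against 11.1% of Vγ6-led) and in 3 of 8 high-ribosomal ones, and at equal depth in 6.90% of low-ribosomal Tcrg-V5-led against 6% of Vγ6-led barcodes. Cd24a had 0 UMIs in both groups, so low Cd24a was common to them. Of the Tcrg-V5-led barcodes 20 were low- and 7 high-ribosomal, of the Vγ6-led 51 and 40.

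The Vγ6-led barcodes were not uniform, and the members without a Trdv4 lead differed from the rest. Members in which no δ V UMI was seen are pooled here with those led by another δ segment, so the δ chain of most of them is unknown. The 14 members without a Trdv4 lead (8 with no δ V UMI and 6 led by another δ segment; 12 of the 14 low-ribosomal) held 2 UMIs of Maf against 201 in the 91 Trdv4-led members, a ratio of 11.5 the other way (3.14 to 95.6), and 1 UMI of Blk against 100. Cd163l1 was 2.27-fold lower in them (1.59 to 3.35) and Cxcr6 6.68-fold lower (2.83 to 20.7). In the same 14 barcodes Cd27 was 12.2-fold (3.34 to 48.9) and Mki67 12.3-fold (7.79 to 19.7) higher. Id3 was 9.54-fold higher (3.85 to 23.9), but 11 of its 12 UMIs came from the 2 high-ribosomal barcodes. Within the low-ribosomal class alone (12 against 51 barcodes) Maf had 2 UMIs against 74 (10.1-fold lower, 2.70 to 85.0), Cd163l1 was 3.01-fold lower (2.06 to 4.57), Cxcr6 6.01-fold lower (2.27 to 22.5) and Mki67 5.75-fold higher (3.23 to 10.5), and Id3 had 1 UMI against 2. 5830411N06Rik had 22 UMIs in them, in 3 barcodes, and 0 in the 91. Gzma had 28 UMIs, of which 24 came from 1 barcode, against 7 in the 91, so that value rests on that barcode. All 4 Cd24a UMIs of the members were in these 14 barcodes. Of these 14 barcodes 9 held a Mki67 or Top2a UMI, against 19 of the 91, and the part of cell division in these differences was not tested.

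For Maf, the number of Tcrg-V6 UMIs behind the lead made less difference than whether a Trdv4 lead was seen. For Il23r no such order is drawn, since over both classes it was 2.77-fold lower (1.05 to 10.4) in members without a Trdv4 lead. Low-ribosomal members led by 1 UMI (21 barcodes) had Maf at 1165 CPM and Il23r at 1285 CPM, and those led by 2 or more (42 barcodes) had 704 and 600 CPM. Trdv4 stood at 2370 and 3163 CPM.

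Outside the members and the Tcrg-V5-led barcodes, where both groups had a leading δ segment, the δ chain went with IL-17 genes, though not with them alone. The 27 Tcrg-V5-led, Trdv4-led barcodes, left out here, held Maf at 105 CPM and Il23r at 45.1 CPM. The Vγ6-led, Trdv4-led barcodes held 714 and 345 CPM. Of the TMREhi barcodes led by a segment other than Tcrg-V6 or Tcrg-V5, 33 were Trdv4-led (20 low- and 13 high-ribosomal) and 284 were led by another δ segment (131 and 153). Il23r had 21 UMIs in the 33 barcodes and 6 in the 284, 59.7-fold higher per UMI (23.3 to 181), and Il1r1 was 31.7-fold higher (11.7 to 93.8). Cd163l1 was 11.7-fold (9.58 to 14.1) and Maf 3.06-fold (2.17 to 4.24) higher, and 5830411N06Rik had 0 UMIs against 643. The chemokines Ccl5 (7.12-fold, 5.94 to 8.49) and Xcl1 (3.48-fold, 2.43 to 4.87) were higher in the 33 as well. Within the low- and the high-ribosomal class the ratio was 49.2 (13.9 to 265) and 38.3 (8.18 to 237) for Il23r, 23.0 (5.25 to 138) and 28.7 (6.81 to 138) for Il1r1, 9.39 (7.10 to 12.4) and 9.45 (7.09 to 12.5) for Cd163l1, and 2.19 (1.19 to 3.80) and 3.10 (2.00 to 4.64) for Maf. These 33 barcodes lay below the 91 Vγ6-led, Trdv4-led ones in Maf (2.06-fold, 1.48 to 2.93) and Il23r (2.09-fold, 1.29 to 3.52), and above them in Gzma (36.4-fold, 17.1 to 92.5), of which the 33 held 115 UMIs in the low-ribosomal and 0 in the high-ribosomal class. Within the classes Maf was 1.84-fold (1.06 to 3.39) and 2.13-fold (1.41 to 3.33) lower in the 33, and Il23r 1.81-fold (1.02 to 3.40) and 2.27-fold (0.926 to 6.69). Tcrg-V6 transcripts moved with this pattern: of 26 other-led barcodes with Tcrg-V6 UMIs behind the lead 15 were Trdv4-led, and of 488 without Tcrg-V6 UMIs 45 were, Tcrg-V5-led barcodes included. Their part in it was not tested.

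Markers of other cells were sparse in the members. The B cell markers Cd79a, Ms4a1, Ebf1 and Pax5 had 0 UMIs in both classes, and the list summed to 65.5 CPM (other barcodes 103 CPM) in the low-ribosomal and 167 CPM (176 CPM) in the high-ribosomal class. Within that list Cd79b was higher in the members (log2 ratio 0.81 and 1.92) and Ighm lower (-1.34 and -0.73). Of 8 myeloid markers Lyz2, Csf1r, Itgam, Cd68, C1qa and C1qb were at 0 in both classes, and the list summed to 175 CPM (342 CPM) and 230 CPM (137 CPM). Cst3 was higher in both classes (log2 ratio 0.31 and 0.88), while 3 of 5 measured myeloid genes were lower in the low-ribosomal class. All globin genes were at 0, and Cpa3 was the only erythroid or mast cell marker detected. Epithelial and stromal markers summed to 32.7 and 0 CPM. The αβ thymocyte list summed to 229 CPM (403 CPM) in the low-ribosomal and 54.1 CPM (216 CPM) in the high-ribosomal class, with Rag2 and Ptcra at 0 in the members of both. Of its measured genes 1 of 6 and 1 of 5 were higher, Cd8a (log2 ratio 1.17) and Cd8b1 (1.15) respectively. The NK and innate lymphoid list summed to 186 CPM (238 CPM) and 122 CPM (156 CPM), with Ncr1, Il1rl1 and Klrg1 at 0 in both. Itga2 had log2 ratios of -0.56 and 1.45, Gata3 of -0.36 and -0.60, and Klrb1c of -0.18 and -1.455. The part of other cells in the results was not tested.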

How the data were processed

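Per the file headers, the deposited matrices are whole-number UMI counts per gene and barcode from Cell Ranger 3.0.2; the submitters' processing notes name Cell Ranger 3.0 and mm10. The annotation release and the method of cell calling were not given in the sources used here. In all, the TMREhi library held 4350485 UMIs and the TMRElo library 245048. All barcodes and all 31053 features were kept, including the called doublets (Scrublet in scanpy 1.11.5: 6 TMREhi, 8 TMRElo). Sums, CPM and exact intervals were computed with Python 3.11.15 and SciPy 1.17.1 and checked on simulated counts. A gene entered a comparison with a mean of at least 10 CPM over the groups compared. Where a group had 0 UMIs, a bound used 3 counts. Genes were named by a rule: the 6 markers, up to 6 genes per list with the largest absolute log2 ratio in the low-ribosomal class and at least 10 UMIs, γ V, γ constant and δ V segments with at least 20 UMIs, and the 12 genes at each end of the ranking by the weaker of the classes (at least 20 UMIs in each). Members, lists and rule were chosen with earlier results of these data known. For thinning, each barcode was reduced to the 20th percentile of UMIs of the Vγ6-led barcodes of its class. Segment sequences and coordinates are from GENCODE vM21 (GRCm38). A few genes that belong to the lists are not reported here by name.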

Additional observations from a re-analysis of the deposited data

How the results depend on the processing

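A median counts as moved when it shifted by more than 1.5-fold on the ratio scale, and a count when it changed by more than 1.5 times. The share of Vγ6-led barcodes and the Trdv4-led share held under every alternative run, staying inside the interval of the reported value. Of 186 values, with those shares counted among the list medians and gene counts, 163 were unchanged, 14 moved and 9 reversed. All those that moved or reversed were list medians or gene counts. The IL-17 factor median was not stable. In the low-ribosomal class it was -0.10 with Tcrg-V6 at least 2 UMIs ahead and -0.22 without Mki67- or Top2a-positive barcodes, and in the high-ribosomal class 1.77 at a mean of at least 50 CPM, 0.22 against Tcrg-V4-led barcodes and -0.60 without Mki67- or Top2a-positive barcodes. The low-ribosomal cytotoxic median was 0.25 with at least 2 UMIs of the leading segment, 0.15 with a lead of at least 2 UMIs, 1.003 against Tcrg-V4-led, 0.56 against Trgv2-, Tcrg-V1- and Tcrg-V3-led and -1.25 without Mki67- or Top2a-positive barcodes. The high-ribosomal one was -1.78 with a lead of at least 2 UMIs, -1.66 as a mean of per-barcode CPM, 0.59 against Tcrg-V4-led and -2.41 without Mki67- or Top2a-positive barcodes. The G2 and M phase median was -1.49 (low-ribosomal, lead of at least 2 UMIs), -2.27 and -2.29 (high-ribosomal, without Rag1-positive or the deepest barcodes), and 0.44 and -0.29 without Mki67- or Top2a-positive barcodes, an alternative that removes barcodes by 2 of its genes. That alternative also gave 1.97 for the effector genes in the high-ribosomal class. The number of genes past 2-fold, 2472 and 1974, was 3899 of 8556 in the low-ribosomal class with a lead of at least 2 UMIs, and 669 of 4031 and 544 of 2650 at a mean of at least 50 CPM, where fewer genes are tested. Single genes that reversed in the low-ribosomal class were Cd8a (-0.46) and Gzmc (-5.04, at 0 UMIs in 1 group) with a lead of at least 2 UMIs, Ccl5 (0.12) against Tcrg-V4-led, and Cd8a (-0.40), Ctla4 (-0.086) and Ly6a (-0.52) without Mki67- or Top2a-positive barcodes. In the high-ribosomal class they were Ccl5 (0.64) and Tcrg-V1 (0.15) against Tcrg-V4-led, and Tcrg-V5 (-0.32) without Mki67- or Top2a-positive barcodes. The cause was not tested for these changes except where stated. The alternatives on the G2 and M phase, cytotoxic and effector medians were chosen after seeing the data. Keeping only barcodes with at least 500 genes and at most 10% mitochondrial UMIs could not be run in the low-ribosomal class (1 against 5 barcodes). No paired analysis was possible because each fraction has 1 library. With 1 library and few UMIs per barcode, depth limits what can be said of genes of low level. The comparisons by γ and δ lead within each ribosomal class were added after seeing the data.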
